A study of Mus musculus with 4 samples.

Results

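Peaks were examined at 10 mouse genes that are known p53 targets and act in cell cycle arrest or beside it: Cdkn1a, Ccng1, Btg2, Plk2, Plk3, Psrc1, Gdf15, Epha2, Ckap2 and Gtse1. They were chosen by known function, though with earlier results of these data known. A peak was counted when its midpoint lay inside the RefSeq interval of the gene or within 5 kb of it. Of 317986 peaks in 4 lists, 79 met this rule, and the genes are 10 of 21627 protein-coding genes on the chromosomes with peaks. The peaks come from CUT&RUN, in which an antibody directs a nuclease to chromatin in permeabilised cells and the released fragments are sequenced. No read counts or control library were analysed here, so the depth behind a peak is unknown. The cells were medullary thymic epithelial cells (mTEC), which display self-antigens to developing T cells. They came from thymi of mice aged 4 to 5 weeks, enriched for the epithelial surface protein EpCAM, and fell into an mTEClo and an mTEChi group with 2 libraries each, from 500000 cells per condition. All 4 samples were Trp53-WT, so neither group lacked p53 by design. How the sort separated mTEClo from mTEChi, and whether replicates came from different mice, is not given in the sources used here, so p-values measure only the spread between libraries, which may be technical. The sample titles name anti-P53 as the antibody, whereas the protocol names an antibody against BAF155, a subunit of a chromatin remodelling complex. The labels do not settle which protein the peaks mark.

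p53 is a transcription factor that is stabilised after DNA damage and other stress, and one of its outputs is arrest of the cell cycle. It binds a DNA element made of a pair of short half-sites, each built around a central C, a pair of A or T bases and a G. Cdkn1a encodes p21, an inhibitor of cyclin-dependent kinases and the best known mediator of this arrest. The other genes act beside it: Ccng1 encodes cyclin G1, which takes part in feedback on p53; Btg2 encodes an antiproliferative cofactor; Plk2 and Plk3 encode stress-responsive polo-like kinases; Psrc1, Ckap2 and Gtse1 encode proteins of microtubules and the spindle; Gdf15 encodes a secreted member of the TGF-beta superfamily; and Epha2 encodes a receptor tyrosine kinase for ephrins.

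Windows around annotated start sites are shown first for the genes on which the results turn. RefSeq sequences of build GRCm38.p6 (mm10) run from 250 bases before to 50 bases after a start, and windows were found for all 10 genes. For the upstream Cdkn1a start, Ccng1 and Ckap2, capitals mark matches to the p53 half-site, which show where peaks lie relative to such letters. For the downstream Cdkn1a start and Btg2 they mark the GC box, GGGCGG on either strand, a motif bound by Sp-family factors.

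Cdkn1a, upstream start, chr17:29090729-29091028, plus strand: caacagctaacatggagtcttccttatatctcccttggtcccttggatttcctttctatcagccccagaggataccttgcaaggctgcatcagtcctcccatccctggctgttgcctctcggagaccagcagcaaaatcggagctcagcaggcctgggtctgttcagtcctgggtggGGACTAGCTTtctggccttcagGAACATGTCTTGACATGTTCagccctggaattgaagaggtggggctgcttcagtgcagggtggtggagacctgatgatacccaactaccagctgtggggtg

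Cdkn1a, downstream start, chr17:29093519-29093818, plus strand: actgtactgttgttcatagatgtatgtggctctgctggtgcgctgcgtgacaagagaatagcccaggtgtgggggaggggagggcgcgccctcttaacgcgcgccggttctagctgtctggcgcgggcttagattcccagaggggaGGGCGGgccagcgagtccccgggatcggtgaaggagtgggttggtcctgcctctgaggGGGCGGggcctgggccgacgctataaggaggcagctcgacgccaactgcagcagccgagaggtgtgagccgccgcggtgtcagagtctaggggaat

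Ccng1, chr11:40755237-40755536, minus strand: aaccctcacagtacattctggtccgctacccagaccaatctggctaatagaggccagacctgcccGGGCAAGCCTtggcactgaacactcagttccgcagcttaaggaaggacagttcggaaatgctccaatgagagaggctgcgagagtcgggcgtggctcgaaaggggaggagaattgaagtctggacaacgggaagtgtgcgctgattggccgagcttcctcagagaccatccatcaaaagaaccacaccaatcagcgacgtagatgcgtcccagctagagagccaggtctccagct

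Ckap2, chr8:22185770-22186069, minus strand: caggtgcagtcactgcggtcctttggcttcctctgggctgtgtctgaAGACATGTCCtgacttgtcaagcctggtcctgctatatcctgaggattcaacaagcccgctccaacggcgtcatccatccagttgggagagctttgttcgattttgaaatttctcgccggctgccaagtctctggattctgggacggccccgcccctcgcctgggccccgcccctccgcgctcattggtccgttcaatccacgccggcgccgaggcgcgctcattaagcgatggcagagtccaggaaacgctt

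Btg2, chr1:134079106-134079405, minus strand: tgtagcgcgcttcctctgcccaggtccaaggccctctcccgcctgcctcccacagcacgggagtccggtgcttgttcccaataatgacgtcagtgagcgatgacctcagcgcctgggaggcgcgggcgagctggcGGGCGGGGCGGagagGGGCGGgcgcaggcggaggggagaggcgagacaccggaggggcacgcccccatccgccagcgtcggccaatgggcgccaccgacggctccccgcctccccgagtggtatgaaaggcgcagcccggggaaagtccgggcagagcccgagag

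In the upstream Cdkn1a window the second capital run, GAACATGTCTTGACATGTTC, lay at chr17:29090928-29090947. It holds 2 adjoining half-sites with 1 mismatch in all, at bases -51 to -32 relative to the start. A pattern of this kind, with at most 1 mismatch and none in the C, A/T, A/T, G cores, occurred in windows of 9 of 17273 genes (0.0521%), and this pattern was added after the Cdkn1a sequence had been seen. Of the 10 arrest genes 2 held it: Cdkn1a and Gtse1, the latter as GAGCAAGTTGGGGCTTGCCT at chr15:85859945-85859964 across its second start. The strict form, 2 perfect half-sites with 0 to 13 bases between them, occurred in 10 of 17273 genes (0.0579%), and of the arrest genes in Cdkn1a alone. A single perfect half-site was found in windows of 4 arrest genes (Cdkn1a, Ccng1, Ckap2 and Gtse1) and of 8.55% of all genes. The other motifs searched on both strands were the CHR element TTTGAA, an element of cell cycle promoters, the CCAAT box CCAAT, and the GC box. They were present in 3, 6 and 7 of the 10 arrest genes, against 18%, 42.7% and 49.8% of all genes. A match is a stretch of letters and no proof of a binding site.

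The 4 peak lists held between 69359 and 89809 intervals, each a summit with 150 bp on either side. Each peak carries the authors' score, read as a negative log10 p or q from the peak caller. The score orders peaks within a list and is no level that can be compared between lists. Each peak is therefore given by its percent rank, its place in its own list counted from the highest score, as a percentage of the list. Small values are strong peaks, and tied scores share 1 rank. The most frequent single score covered 10.7% to 16% of a list, and the recurring 55.4% of mTEClo replicate 1 is 1 such tied score. Where 4 values are listed, they follow the order mTEClo replicate 1, mTEClo replicate 2, mTEChi replicate 1, mTEChi replicate 2. Peaks are no measure of expression, so the sort cannot be checked against RNA. Of 10 genes of general thymic epithelium, 9, 10, 9 and 10 had a peak by the 5 kb rule, and of 10 thymocyte genes 9, 10, 5 and 8. Over all protein-coding genes the shares were 75.5%, 68.8%, 69.3% and 73%. At promoter windows thymocyte genes had 0, 1, 0 and 0 and epithelial genes 4, 3, 4 and 3. Over all genes these shares were 37.2%, 26.7%, 31% and 27.4%, so the epithelial counts lay near them. The thymocyte counts by the 5 kb rule moved with the state, and their part in the results was not tested.

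Peaks lay at almost every arrest gene in both states. By the 5 kb rule 9 of 10 genes were called in mTEClo replicate 1 and all 10 in each of the other libraries, against 75.5%, 68.8%, 69.3% and 73% of all protein-coding genes. Plk2 in mTEClo replicate 1 was the 1 missing call. Both mTEClo libraries called 9 of the genes (63.1% of all genes), both mTEChi libraries 10 (61.2%) and all 4 libraries 9 (51.9%). None was called in both libraries of 1 state and neither of the other, a class that held 2.14% (mTEClo) and 1.67% (mTEChi) of all genes. For mTEClo the mean number of genes called was 9.5 ± 0.707 and for mTEChi 10 ± 0 (SD over 2 libraries; p = 1 by a two-sided exact permutation test). No comparison over libraries could pass 0.05, because the smallest p attainable from 2 and 2 values is 0.333.

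**Figure D1:**
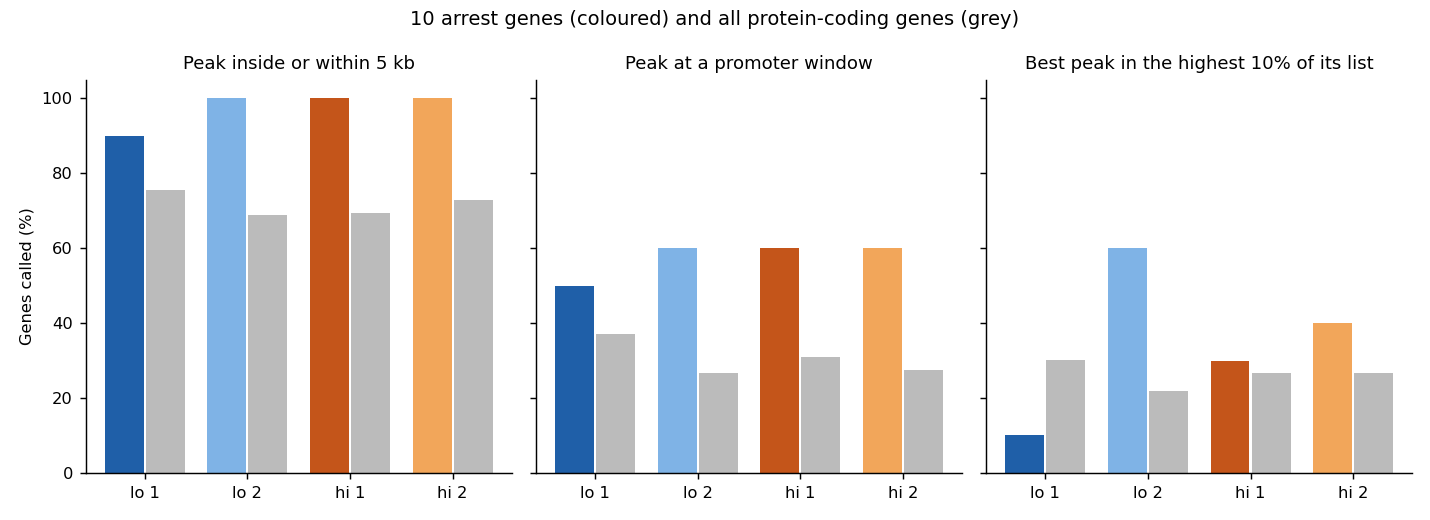
Share of genes called (%), in the 10 arrest genes (coloured bars) and in all protein-coding genes with a value (grey bars), for each library (lo 1 and lo 2 are mTEClo replicates 1 and 2, hi 1 and hi 2 the mTEChi replicates). The panels show genes with a peak by the 5 kb rule, with a peak at a promoter window, and with a best peak in the highest 10% of its list; in the last panel mTEClo replicate 1 has 1 of 10 arrest genes and mTEClo replicate 2 has 6.

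The number of peaks at the arrest genes did not separate the states. Their windows held 19, 18, 23 and 19 peaks. Scaled to list length this was 2.12, 2.6, 3.13 and 2.23 per 10000 peaks, so the states overlapped. The mean for mTEClo was 2.36 ± 0.339 and that for mTEChi 2.68 ± 0.638 (SD over 2 libraries; p = 0.667 by a two-sided exact permutation test). The mTEChi mean was the higher only with mTEChi replicate 1, and without that library the difference was -0.128. The genes are short, with a median window of 16.3 kb against 27.3 kb over all protein-coding genes. Per 100 kb of window they held 9.4, 8.91, 11.4 and 9.4 peaks, against 4.9, 3.73, 3.91 and 4.52 summed over all genes. Per gene, however, they held 1.9, 1.8, 2.3 and 1.9 peaks on average, against 2.86, 2.18, 2.29 and 2.64 over all genes. The part of the shorter windows in the higher density was not tested.

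Sites at gene starts were mostly shared between libraries, and sites elsewhere mostly belonged to 1 library. Merged where they overlapped by at least 1 bp, the 79 peaks formed 48 sites, of which 6 had a peak in all 4 libraries (12.5%, against 2.83% of 149117 sites in windows of all protein-coding genes). Merging ran from each peak to the next, so peaks of 1 site need not all overlap each other. Of the 7 sites that overlapped a promoter window, 5 were found in all 4 libraries, 1 in 3 and 1 in 2. Of the 41 other sites, 32 were found in 1 library, 7 in 2, 1 in 3 and 1 in all 4. The split by place was made for the arrest genes alone, so it cannot set them apart from other genes. The 12.5% against 2.83% does not allow for the shorter windows of the arrest genes. Sites in 1 library made up 66.7% of the 48, against 82.6% of sites over all gene windows, so single-library sites were common at genes in general. Promoter windows of 5 arrest genes had a peak in mTEClo replicate 1 and of 6 in each other library, against 37.2%, 26.7%, 31% and 27.4% of 17273 genes. The 5 genes with a promoter peak in all 4 libraries were Ccng1, Btg2, Plk3, Ckap2 and Gtse1 (13.8% of all genes). Both mTEClo libraries had one at 5 arrest genes (21.1%) and both mTEChi libraries at 6 (20.9%). No arrest gene had a promoter peak in both libraries of 1 state and neither of the other, against 2.99% (mTEClo) and 1.48% (mTEChi) of all genes. Cdkn1a had a promoter peak in 3 libraries, and Plk2, Psrc1, Gdf15 and Epha2 had no promoter peak in any library.

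**Figure D2:**
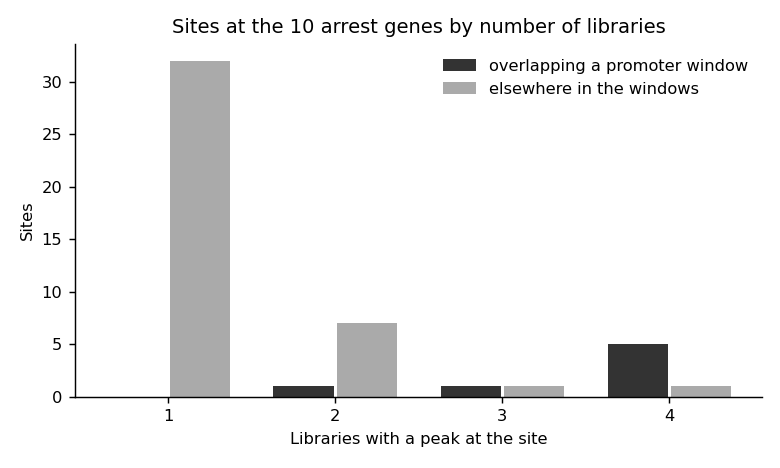
Number of sites at the 10 arrest genes (vertical axis) by the number of libraries with a peak there (horizontal axis), for 7 sites that overlap a promoter window (dark) and 41 other sites (light). Single-library sites all lie away from promoter windows, 32 in number, and 5 of the 6 sites in all libraries lie at them.

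**Figure D3:**
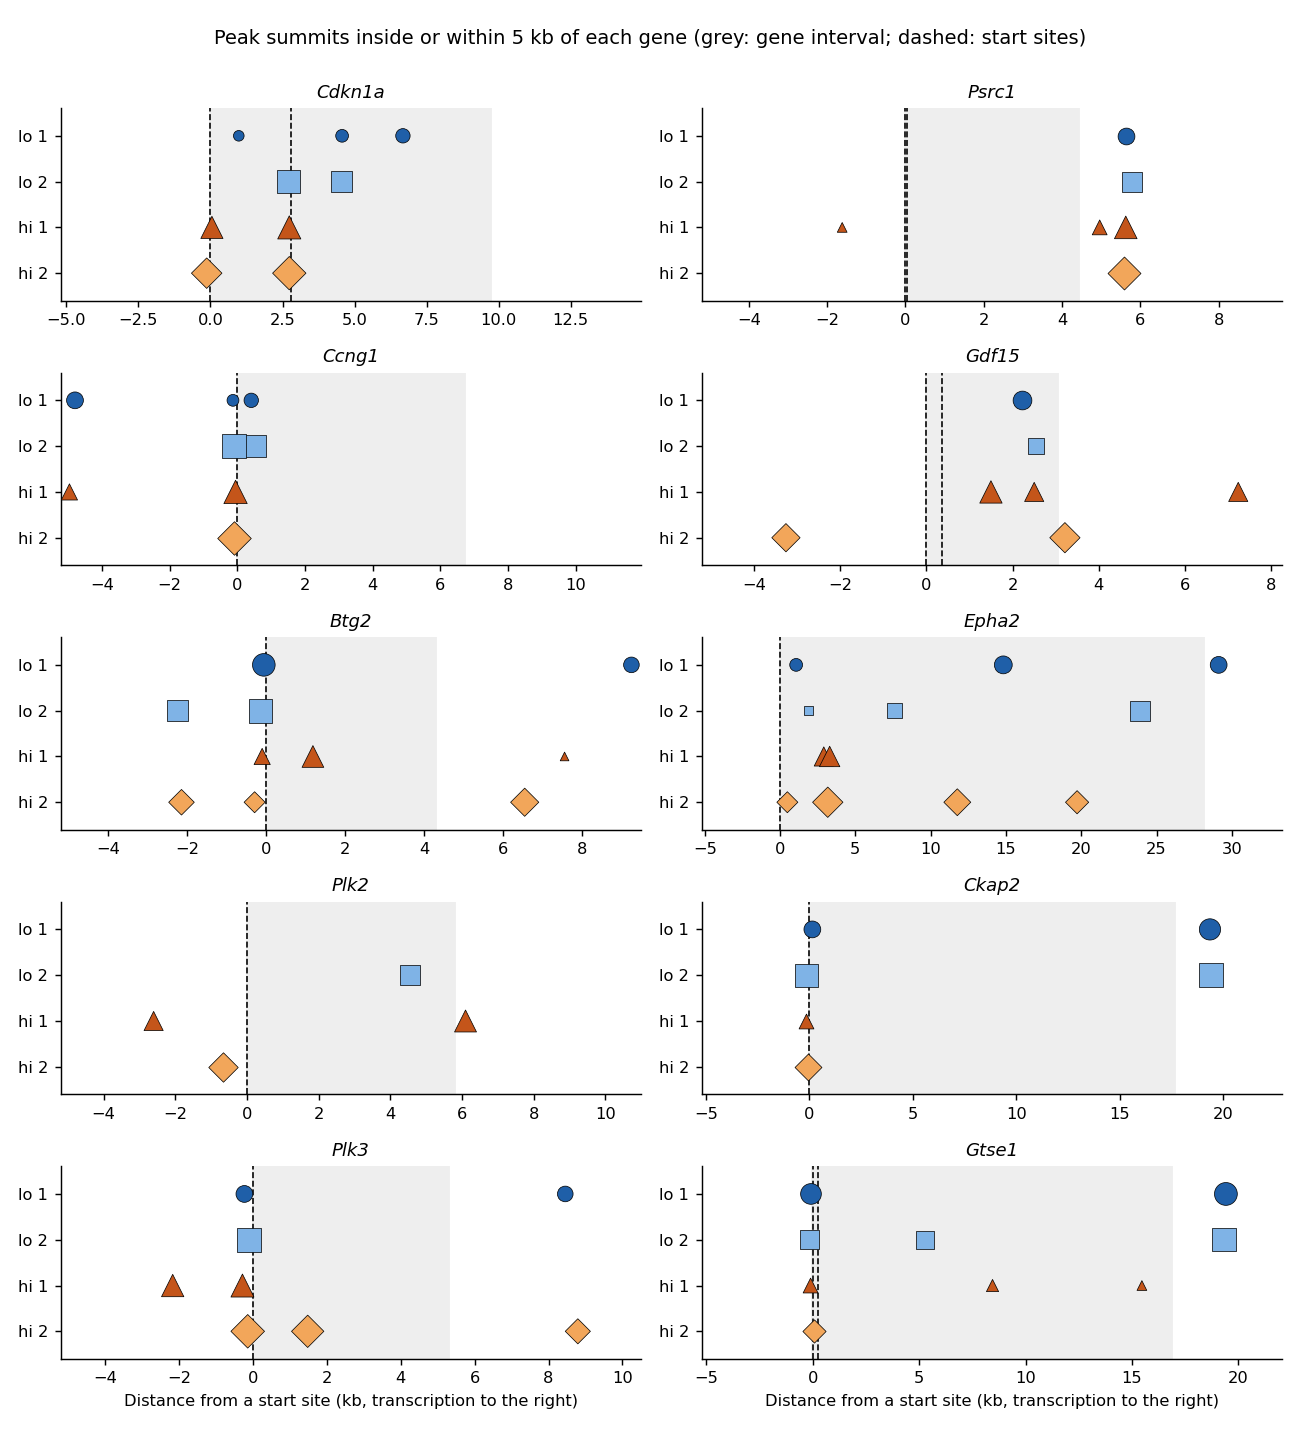
Peak summits by distance from a start site in kb (horizontal axis; transcription runs to the right) for each gene and library (rows). Grey marks the gene interval, dashed lines its annotated starts, and larger symbols stand for stronger peaks within their own list; peaks line up at the start of Ccng1, Btg2, Plk3, Ckap2 and Gtse1, and downstream of Psrc1.

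At Cdkn1a (gene ID 12575, chr17:29090979-29100722, plus strand), the p21 gene, mTEChi libraries had peaks at both annotated starts. At the upstream start their summits stood at 29091029 (replicate 1, percent rank 15%) and 29090848 (replicate 2, 20.2%), 181 bp apart, and neither mTEClo library had a peak there. Both of these intervals covered the adjoining half-sites printed above, with summits 92 bp downstream and 90 bp upstream of the element's centre. Over all gene windows 2.04% of sites had a peak in both mTEChi libraries and in no mTEClo library. The site joins summits on either side of the element and was split when summits had to lie within 75 bp of each other.

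At the downstream Cdkn1a start, whose window has 2 GC boxes and no p53 half-site, 3 libraries had a peak. Both mTEChi summits stood at 29093713, 56 bp before the start, with percent ranks of 6.57% and 2.59%, and the mTEClo replicate 2 summit stood at 29093677 with 9.5%. In mTEClo replicate 1 there was none, and its 3 Cdkn1a peaks, inside the gene, ranked at 87.7%, 78.3% and 69.7%. A site 1763 to 1776 bp downstream of this start was found in both mTEClo libraries (78.3% and 28.3%) and in no mTEChi library. It was 1 of 4 arrest gene sites of this class (8.33%, against 3.03% of sites over all genes). Of the others, the Gtse1 site lay 211 to 297 bp from the start of the neighbour Trmu, and the Ckap2 site overlapped the gene Nek3. By library the best Cdkn1a peak thus ranked at 69.7%, 9.5%, 6.57% and 2.59%, and without mTEClo replicate 1 the difference of the means shrank from -35 to -4.92 percentage points.

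**Figure D4:**
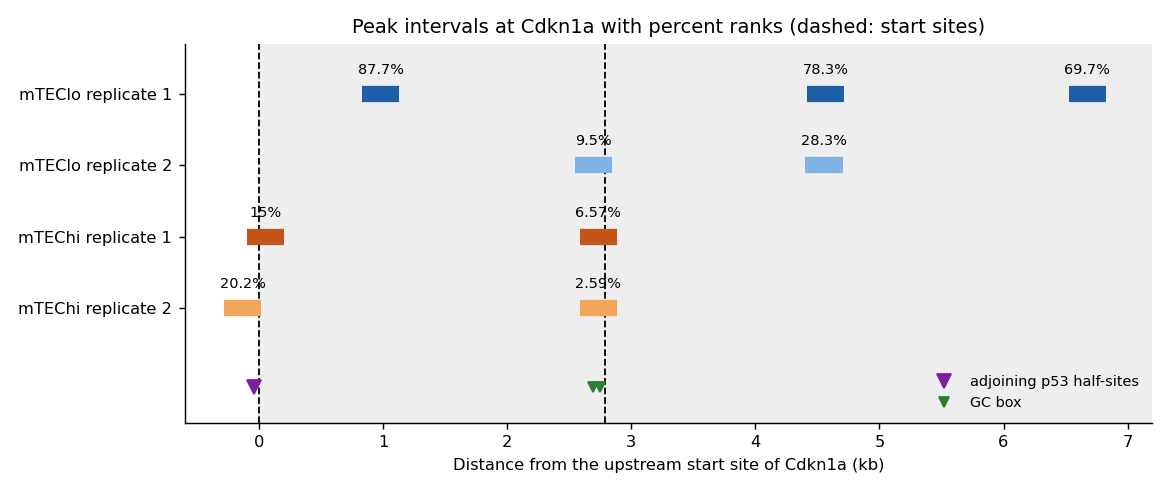
Peak intervals at Cdkn1a by library (rows) and distance from the upstream start in kb (horizontal axis), each labelled with its percent rank; dashed lines are the 2 starts and grey the gene interval. The mTEChi intervals at 15% and 20.2% cover the adjoining p53 half-sites, and 3 libraries share the interval over the GC boxes.

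Ccng1 (gene ID 12450, chr11:40748552-40755309, minus strand), the cyclin G1 gene, had a peak at its start in every library. The summits fell between 53 and 129 bp before the start, within 76 bp of each other. They ranked at 82.6%, 2.02%, 4.93% and 1.43%, so 3 libraries held a strong peak and 1 a weak one. All 4 intervals covered the single half-site GGGCAAGCCT, at bases -185 to -176 relative to the start. A second site 411 to 520 bp inside the gene was found in both mTEClo libraries alone (69.7% and 19.2%).

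Plk3 (gene ID 12795, chr4:117128655-117133963, minus strand), the gene of a stress-responsive polo-like kinase, showed the same order of libraries at its start. Summits between 108 and 280 bp before the start ranked at 55.4%, 5.71%, 8.01% and 1.18%. The last was the strongest of the 79 peaks within its own list. The Plk3 window overlaps Btbd19 and Tctex1d4, and 2 of its 8 peaks lay nearer to the start of Btbd19. Plk2 (gene ID 20620, chr13:110395044-110400844, plus strand), a kinase of the same family, had no shared site: its 4 peaks fell at 4 positions. Its best peaks ranked at 28.3% in mTEClo replicate 2 and at 16.9% and 26.2% in mTEChi.

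Btg2 (gene ID 12227, chr1:134074865-134079155, minus strand), the antiproliferative cofactor gene, ranked the other way. The site at its start, with summits 58 to 291 bp before it, ranked at 11.4%, 1.78%, 59% and 67%, without overlap between the states. Over the whole window the best peaks ranked at 11.4%, 1.78%, 18.6% and 33.2%, with the mTEChi replicate 1 value from a peak 1184 bp inside the gene. The 3 GC boxes, of which a pair shares 1 base, lie at bases -115 to -95 relative to the start. All of them lay under the mTEClo intervals and the mTEChi replicate 1 interval. The mTEChi replicate 2 interval lay farther upstream and covered none of them.

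The 2 spindle genes with a promoter peak were also stronger in mTEClo by best peak, partly through peaks at neighbouring genes. At the start of Gtse1 (gene ID 29870, chr15:85859691-85876573, plus strand), whose product binds microtubules and p53, summits from 147 bp before to 52 bp after the first start ranked at 27.4%, 40.9%, 67% and 57.8%, without overlap between the states. No interval reached the adjoining half-sites at the second start. The best Gtse1 values of the mTEClo libraries, 9.76% and 6.54%, came from a site 2457 to 2543 bp beyond the gene that lies 211 to 297 bp from the start of the neighbour Trmu. At Ckap2 (gene ID 80986, chr8:22168149-22185819, minus strand), which encodes a spindle protein, start site peaks ranked at 55.4%, 5.71%, 67% and 40%, so the states overlapped. The half-site AGACATGTCC, at bases -203 to -194, lay inside the intervals of mTEClo replicate 2 and mTEChi replicate 1. The mTEChi replicate 2 interval ended within it, and the mTEClo replicate 1 interval, with its summit 145 bp into the gene, did not reach it. The best Ckap2 peaks in mTEClo, at 23% and 3.27%, overlapped Nek3, another gene.

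Psrc1, Gdf15 and Epha2 had their peaks away from the start. The third spindle gene, Psrc1 (gene ID 56742, chr3:108383804-108388231, plus strand), had a site in all 4 libraries 1147 to 1354 bp beyond its 3′ end. It ranked at 55.4%, 35.1%, 11.1% and 5.13%, with both mTEChi peaks the stronger. Gdf15 (gene ID 23886, chr8:70629393-70632470, minus strand), the gene of the secreted factor, had best peaks at 42.1%, 64.6%, 13.5% and 21.5%. Those of mTEClo lay inside the gene with summits 309 bp apart and did not overlap each other. An mTEChi replicate 1 interval (38.9%) overlapped both and joined them into 1 site, which mTEChi replicate 2 lacked. The mTEChi best peaks lay at separate sites, 1 inside the gene and 1 just beyond it. Epha2 (gene ID 13836, chr4:141301221-141329384, plus strand), the ephrin receptor gene and the longest of the 10, had 12 peaks at 10 sites. Both mTEChi libraries alone shared 1 of them, 2902 to 3291 bp downstream of the start (29.1% and 21% at its best peaks), and the other 9 were each found in 1 library. The best mTEClo peaks at Epha2 ranked lower, at 48.3% and 35.1%.

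**Figure D5:**
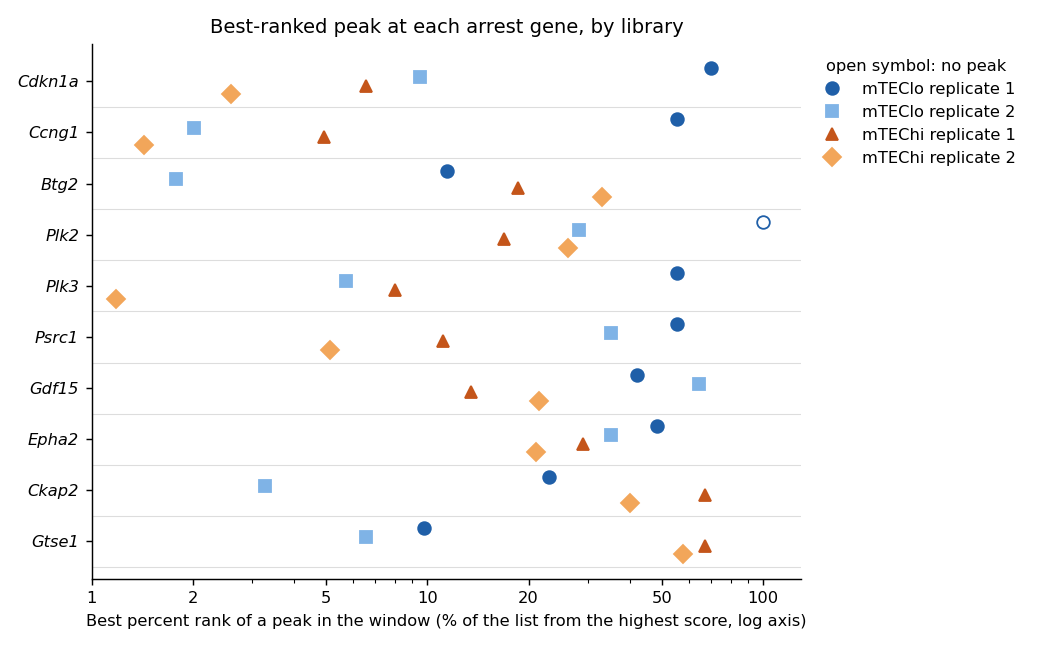
Best percent rank of a peak by the 5 kb rule (log axis; left is stronger) for each arrest gene and library; the open symbol is Plk2 in mTEClo replicate 1, with no peak and placed at 100. mTEChi symbols lie left of both mTEClo symbols for Cdkn1a, Plk2, Psrc1, Gdf15 and Epha2 and right of both for Btg2, Ckap2 and Gtse1.

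By best peak, mTEChi libraries both ranked above both mTEClo libraries for 5 genes (Cdkn1a, Plk2, Psrc1, Gdf15 and Epha2), a pattern seen in 15.2% of all genes. They both ranked below for 3 genes (Btg2, Ckap2 and Gtse1), seen in 14.3% of all genes, and the states overlapped at Ccng1 and Plk3. With peaks left out that lay nearer to the start of another gene, Ckap2 overlapped too, and Gtse1 stayed separate at 27.4% and 40.9% against 67% and 57.8%. Inside the gene interval alone, which leaves out peaks before the start and beyond the end, the difference between the states turned for Ccng1, Btg2, Plk2, Gdf15 and Gtse1. For Ccng1 it also turned, from -25.5 to 1.17 percentage points, without mTEClo replicate 1. The median best percent rank over the 10 genes was 51.9%, 8.02%, 15.2% and 21.2%, against 31.4%, 42%, 38.9% and 31.5% over all genes. These medians averaged 29.9 ± 31 for mTEClo and 18.2 ± 4.28 for mTEChi (SD over 2 libraries; p = 1 by a two-sided exact permutation test). The spread inside mTEClo exceeded the difference of -11.7 percentage points, which became 10.2 without mTEClo replicate 1. That library had 1 arrest gene with a best peak in the highest 10% of its list, against 6, 3 and 4 in the other libraries and 30.2%, 22%, 26.6% and 26.7% of all genes. Its own share over all genes was the highest of the 4.

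Genes that work with the arrest genes were read by the same 5 kb rule. Whether their best peaks lay nearer to the start of a neighbour was not checked. Of p53 and its regulators, Trp53, the p53 gene, had best percent ranks of 0.367%, 6.77%, 3.45% and 2.28%, and Mdm4, which encodes an inhibitor of p53, had 9.76%, 16.5%, 2.82% and 0.54%. Mdm2, the gene of the ubiquitin ligase for p53, was called in the mTEChi libraries alone (19.4% and 26.2%), a class of 1.67% of all genes. Of 9 matched other p53 targets of arrest and growth control, all 4 libraries called 7 (51.9% of all genes were called in all 4), led by Fbxw7, a ubiquitin ligase subunit gene (1.31% at worst), and Sfn, which encodes the 14-3-3 sigma protein (6.12% at worst). None of the 9 was called in both libraries of 1 state and neither of the other.

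Of 15 genes for the cyclins and kinases on which p21 acts, Rb family proteins and Pcna, all 4 libraries called 11. Cdk2, the kinase that p21 classically inhibits, had best peaks at 0.252%, 0.147%, 0.332% and 0.22%, and Ccna2, the cyclin A2 gene, had 1.23% at worst. Of the 6 other cyclin-dependent kinase inhibitor genes, all 4 libraries called 4, with Cdkn2d (3.57% at worst) and Cdkn1b (4.92% at worst) in front and Cdkn2a called in both mTEChi libraries alone (11.1% and 88.6%). Among 10 relatives of Btg2, Plk2, Plk3, Ccng1 and Ckap2, 6 were called in all libraries. With 51.9% of all genes called in all libraries, counts of 4 of 6 and 6 of 10 set neither list apart. Tob2 (3.98% at worst) and Btg4 (4.04% at worst) led these, and Btg3 was called in mTEChi alone (13.5% and 57.8%). None of the genes in these lists was called in mTEClo alone. Over all genes 2.14% were called in mTEClo alone and 1.67% in mTEChi alone, so an absence in lists this small says little. Of the cell type markers, the thymocyte genes Cd3d and Cd8a and the myeloid gene Itgax were called in mTEClo alone, and none was in mTEChi alone. Their best mTEClo peaks ranked at 17.1% and 64.6% (Cd3d), 69.7% and 35.1% (Cd8a) and 47.9% and 64.6% (Itgax). By best peak the thymocyte gene Cd3g ranked higher in mTEChi, and the states overlapped at the rest of the thymocyte list.

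The presence of a p53 half-site in a promoter window did not go with more peaks over all genes. Windows with a half-site had a peak in 32%, 22.9%, 25.4% and 23.1% of cases, and windows without one in 34.3%, 24.4%, 28.5% and 25.2%. For the strict form, in 10 windows, the share was 10% in each library. For the adjoining half-sites, in 9 windows, it was 11.1%, 22.2%, 33.3% and 33.3%. Windows without either form had 34.1%, 24.3%, 28.3% and 25% in both comparisons. Both forms include the upstream Cdkn1a window, and windows this few cannot settle a difference. For the GC box, which Cdkn1a, Btg2, Plk2, Plk3, Psrc1, Epha2 and Ckap2 hold, the shares were 48.8%, 35%, 40.7% and 36.1% with and 21.3%, 14.9%, 17.4% and 15.3% without. Windows with a peak had a median GC content of 61.3%, 61.3%, 60.7% and 61%, against 53%, 54.3%, 54.3% and 54.3% without one. The motif shares were not adjusted for base composition, and its part in them was not tested. All of these are descriptions over windows, which are not replicates. The 14 windows of the arrest genes had a median GC content of 60.5%, against 56.7% over 21044 windows of protein-coding genes. The upstream Cdkn1a window had 54.7% and 2 CpG dinucleotides, and its downstream window 64.7% and 23.

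Few peaks lay close to the 5 kb limit, though windows of 0 kb and 25 kb changed the results, as given in the closing section. The outermost peaks kept stood 4952 bp (Btg2, mTEClo replicate 1, 62.7%) and 4938 bp (Ccng1, mTEChi replicate 1, 59.1%) outside their genes. Within the next kilobase 1 peak was left out, at 5368 bp from Epha2 in mTEChi replicate 1 (80.9%).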

How the data were processed

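Each of the 4 samples, 2 mTEClo and 2 mTEChi, had 1 deposited peak list. MACS2 2.2.7.1, SAMtools 1.9, Picard and Bowtie2 2.2.9 are named with mm10 in the submitters' processing notes; how they were set and whether peak calling had a control is not given there. The score deposited by the authors, read as −log10 of the peak caller's p-value or q-value, has a minimum of 2 in each list, and each list belongs to 1 library. Without read counts the depth is unknown.

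Summits were taken as interval midpoints, with coordinates from 1. Gene intervals and promoter windows came from RefSeq for GRCm38.p6, the same build. Of 104 listed genes, 103 matched a protein-coding symbol. State values were compared over libraries with a two-sided exact permutation test, and counts and ranks of single genes carry no test. A gene without a peak was placed at a percent rank of 100. The genes and lists were chosen with earlier results of these data known. All 10 arrest genes are named; from other lists, up to 2 genes with the best worst rank, up to 2 called in 1 state alone, and always Trp53, Mdm2 and Mdm4. Cell type markers are given by counts, and those called in 1 state alone were named after their values were seen. Further marker lists gave these counts of genes called in the report's order of libraries: mature mTEC 10, 9, 10 and 10 of 10, B and myeloid cells 7, 8, 5 and 7, and fibroblasts and endothelium 8, 8, 9 and 9. The same rule called 75.5%, 68.8%, 69.3% and 73% of all protein-coding genes. Alternatives changed the window, the peaks used, the merging distance, the libraries and the pairing. Steps were tested on simulated data with planted peaks. Calculations used scipy 1.17.1, pandas 2.3.3 and numpy 2.4.6 under Python 3.11.15, and plots matplotlib 3.10.9.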

Additional observations from a re-analysis of the deposited data

How the results depend on the processing

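With 2 libraries per state no comparison could pass 0.05, and the exact permutation p ran from 0.333 to 1 in all settings. With the gene interval alone (0 kb), the mTEChi minus mTEClo difference turned to -1 for genes with a peak, to -0.0717 for peaks per 10000 and to 24.5 for the median best percent rank. That window leaves out peaks just upstream of a start. With it, sites in all libraries, mTEClo alone and mTEChi alone numbered 0, 2 and 1, and genes called in both mTEClo, both mTEChi, all libraries and mTEClo alone 4, 3, 2 and 1. With the 10000 highest peaks the rank difference was 21.2, and those sites numbered 0, 1 and 1. Genes called in both mTEClo, both mTEChi, all libraries, mTEClo alone and mTEChi alone then numbered 1, 4, 0, 1 and 1. Shares over all genes were not computed for any alternative setting in this section. Its counts therefore cannot set the arrest genes apart from other genes.

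Above the median score, sites in all libraries fell to 0 and genes called in both mTEClo, all libraries and mTEClo alone were 4, 2 and 1. A window of 1 kb left 2 mTEClo-only sites, and one of 25 kb gave 16 sites in all libraries and 6 in mTEChi alone. With summits within 75 bp, sites in all libraries, mTEClo alone and mTEChi alone were 1, 2 and 0. Within 250 bp of a gene end, 3 genes were called in all libraries. Within 3 kb, 9 genes were called in both mTEClo, 10 in both mTEChi and 9 in all.

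Without a library, the rank difference ran from -33.6 to 10.2 (the latter without mTEClo replicate 1), peaks per 10000 from -0.128 (without mTEChi replicate 1) to 0.773, mTEClo-only sites from 4 to 11, mTEChi-only sites from 2 to 14, and genes called in mTEChi alone from 0 to 1. Fewer lists then suffice for a state-specific call. With the replicate number as a block the differences stayed 0.5, 0.323 and -11.7 (exact permutation, p = 1 each). Deviations of same-numbered libraries correlated at -0.0446 over 21627 genes. With median counts of 1 to 2 peaks per gene, this value cannot decide whether the numbers pair the libraries. Rank differences of single genes changed direction in 7 of 110 values: with the gene interval alone for Ccng1 (55.6), Btg2 (-40.7), Plk2 (35.9), Gdf15 (3.39) and Gtse1 (-5.08), with 25 kb for Plk3 (0.218), and without mTEClo replicate 1 for Ccng1 (1.17). Leaving out peaks nearer to another start was chosen after seeing the data and turned none of the 3 group differences.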
